A study of Arabidopsis thaliana with 16 samples.

Results

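The 143 Affymetrix probe sets described here differed between low and high nitrate in whole rosettes of Arabidopsis thaliana at both harvest ages, in wild type and in the atg5 mutant. They were chosen by their measured values. A level is log2 of the signal with 32 added, averaged over the 2 arrays of a group, and a member had to differ between low and high nitrate by at least 0.8, with a single sign, in 4 differences. These were Col-0 at T60 and at T30 against Col-0 on high nitrate, and atg5 at T60 and at T30 against atg5 on high nitrate. Control probe sets and chloroplast-genome loci were not eligible, and 19 of 77 chloroplast-genome probe sets met the differences, all of them lower on low nitrate. Of 22669 eligible probe sets, 110 (0.485%) were lower on low nitrate and 33 (0.146%) were higher. They are called the lower and the higher members below.

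The study measured transcripts on 16 arrays in 8 groups of 2. On low nitrate (LN, 2 mM) the groups were atg9 (SALK_130796), atg5 (the atg5-3 allele, given as SALK_02060) and the wild type Col-0, each at T60 and at T30, harvests at 60 and 30 days after sowing. On high nitrate (HN, 10 mM) the groups were atg5 and Col-0, with no atg9. The titles and the design give the high-nitrate plants an age of 30 days and the sample descriptions give 60 days, so nitrate and age cannot be told apart in at least some of the differences. All plants grew in short days of 8 h light and 16 h dark. Each array held RNA of pooled rosettes of more than 6 plants, and the 2 arrays of a group came from 2 cultures grown months apart. Every p rests on the spread between such pools, estimated over all 8 groups together. The error of a test within atg9 thus also draws on arrays that the rule used. Each mutant is a single T-DNA insertion line. In whole rosettes a loss of cells of a type and less RNA per cell cannot be told apart.

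Nitrate is taken up by roots, reduced to ammonium and built into amino acids, and it also acts as a signal that changes transcription. Plants short of nitrogen grow slowly and recover nitrogen from older leaves. Autophagy carries cytoplasm to the vacuole for breakdown and takes part in that recovery. ATG5 belongs to the machinery that attaches ATG8 to lipid, and ATG9 is a membrane protein of the same pathway. The annotation names no probe set for either mutated gene, and these were not analysed here.

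Array medians ran from 154.3 to 254.0. The lower quartile of signals was 89.3 on Col-0 LN T30 of culture 1 and 26.6 to 39.0 on the rest. The atg5 LN T60 array of culture 1 had a 3′ to 5′ signal ratio of 9.05 for actin, against at most 3.04 elsewhere, a ratio that rises in degraded or partly copied RNA. These are called the arrays that stand apart, and both were used by the rule. Without them 144 probe sets met the rule, of which 102 were among the 143. The rosette marker RCA, the activase of Rubisco, had a mean signal of 23403.7. Of the root list, LBD29 had a mean signal of 10.0. The other root gene with a named probe set, PYK10, was higher on low nitrate at T30 by 1.97 in atg5 (adjusted p = 0.0045, limma) and also in Col-0 (adjusted p = 0.021, limma), and did not pass at T60. Its part in the members' differences was not tested.

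Among the lower members the median difference was -1.51 in atg5 at T60, -1.74 in atg5 at T30, -1.71 in Col-0 at T60 and -2.12 in Col-0 at T30. The higher members had medians of 1.23, 1.07, 1.66 and 1.21 in the same order. Over all eligible probe sets the medians were -0.01, 0.00, 0.00 and 0.17. These are the values that chose the members and carry no test. In 13 lower members and 0 higher members all 4 sizes reached 2, and in 66 lower and 9 higher members all 4 reached 1. Within a culture, the 4 differences can be taken from 1 array against 1 array, and 127 of 143 members kept a single sign over the resulting 8 differences. In 38 members all 8 reached 0.8. The same arrays chose the members, so agreement in sign is largely built in. No share over all probe sets stands beside these counts, and nothing is read from them. By single arrays, the 8 low-nitrate arrays of atg5 and Col-0 lay below all 4 high-nitrate arrays in 63 lower members (0.878% of all probe sets) and above them in 18 higher members (0.895% of all), again with no test. With the 4 atg9 arrays added, all 12 low-nitrate arrays lay below all 4 high-nitrate arrays in 55 of 110 lower members (0.631% of all) and above them in 14 of 33 higher members (0.551% of all). Whether the nitrate levels overlap is given for single genes below as a description.

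Next to the limit lay 248793_at, whose smallest size was 0.8002, and AT2G15960 at 0.8103 on the lower side. Just outside were 247794_at at 0.7998 and 247043_at at 0.7921. Of the named lower members AT1G67330 was the next, at 0.8129. On the higher side 264517_at was inside at 0.8036 and 250926_at at 0.8096, and 264901_at at 0.7946 and 254120_at at 0.784 were outside. The named higher members nearest to the limit were AT2G36630 at 0.8809 and AT1G28570 at 0.8843.

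The array's annotation gives a gene to few of the members. A single gene was listed for 55, which are 44 genes among the lower and 9 among the higher members, 3 had several genes and 85 were not listed. The 4 largest median differences, -5.01 for 258856_at, -4.51 for 262369_at, -4.24 for AT5G20790 and -3.73 for 248676_at, include 1 named gene. The probe set 258856_at had signals of 19.7 to 852.1 with a median of 73.4 on the 12 low-nitrate arrays, and of 2209.8 to 5512.8 on the 4 high-nitrate arrays. Every low-nitrate array lay below every high-nitrate array.

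AT5G20790, a gene of unknown function known from phosphate starvation, had the largest median difference of the named members. Its signal was 1.4 at the lowest, 10.7 in the median and 203.0 at the highest over the 12 low-nitrate arrays, against 712.8 and 1053.6 in atg5 and 1135.1 and 1650.7 in Col-0 on high nitrate. The highest low-nitrate value was atg5 at T60 in culture 1, and the groups did not overlap. A further 3 named lower members belong to phosphatase or related families. AT1G13750, a purple acid phosphatase, ran from 102.1 to 1086.2 with a median of 264.3 on low nitrate, against 1233.0 to 1887.4 on high nitrate. AT1G67600, an acid phosphatase-related protein, ran from 29.7 to 87.4 with a median of 47.1 on low nitrate, against 244.2 to 625.8. AT2G39920, of the HAD acid phosphatase family, ran from 72.2 to 515.0 with a median of 305.4 on low nitrate, against 515.9 to 1319.1. None of these 3 overlapped between low and high nitrate, AT2G39920 by the narrowest gap.

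AT1G68670, a MYB-type transcription factor known from nitrate and phosphate signalling, ran from 290.2 to 1505.9 with a median of 839.0 on low nitrate, against 2191.5 to 2938.5 on high nitrate. AGL42, a MADS-box transcription factor, ran from 15.1 to 69.1 with a median of 35.2 on low nitrate, against 236.8 to 397.4. Neither gene overlapped between the nitrate levels. IAA29, a repressor of auxin-responsive transcription, ran from 21.2 to 176.1 with a median of 116.2 on low nitrate, against 242.2 to 420.5 on high nitrate, and did not overlap either. WAG2, a protein kinase of auxin transport, was dim throughout, at 3.3 to 87.5 on low nitrate and 73.7 to 216.3 on high nitrate, and its ranges met. FHL, which takes phytochrome A into the nucleus, overlapped too, with a median of 64.5 and a highest signal of 238.9 on low nitrate, against 163.6 to 517.5 on high nitrate, the highest low-nitrate value being the Col-0 array that stands apart.

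**Figure D1:**
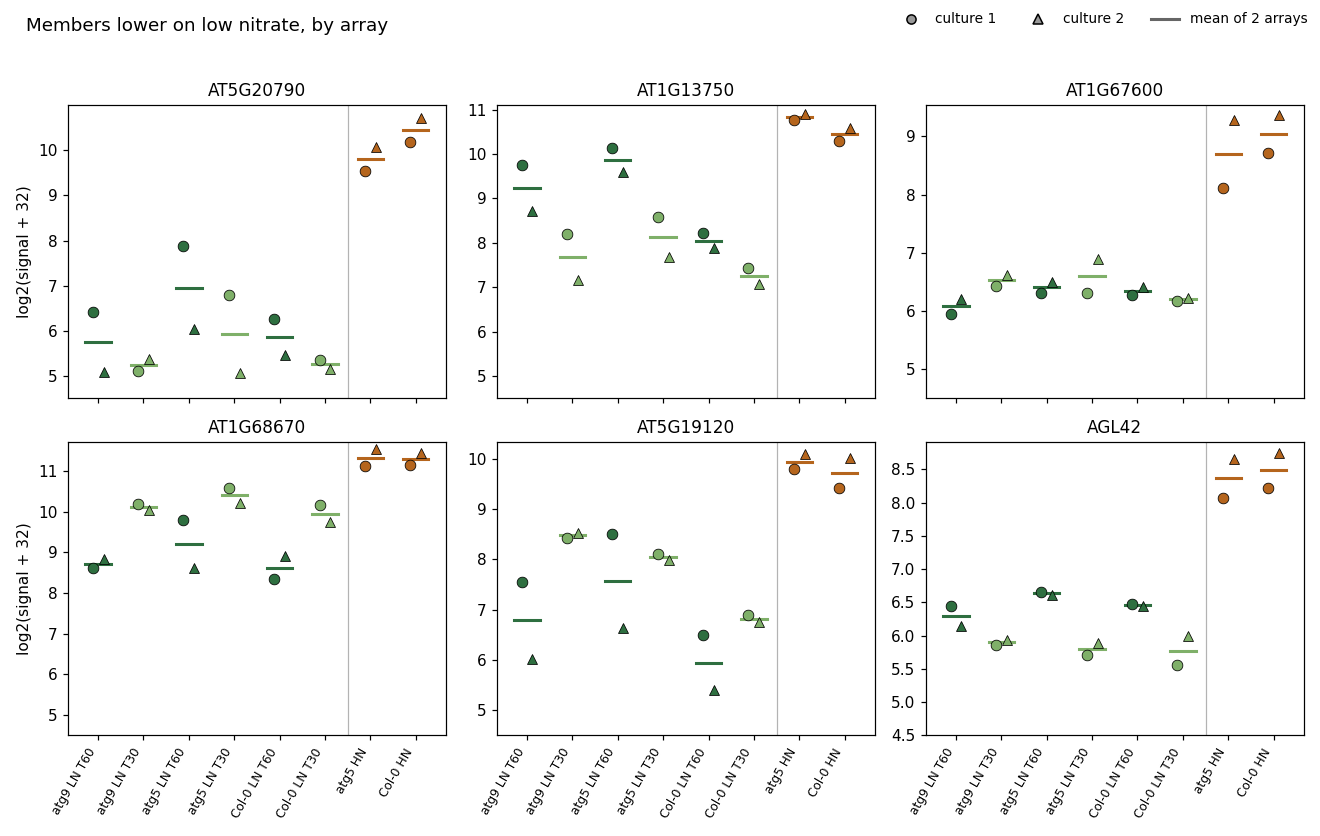
Level of 6 named lower members on each of the 16 arrays, as log2(signal + 32), by genotype, nitrate and age. Circles are culture 1, triangles culture 2 and bars the mean of 2 arrays; the vertical line separates the 12 low-nitrate from the 4 high-nitrate arrays, and in each of the 6 panels all low-nitrate points lie below all high-nitrate points.

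The other named lower members with large differences came from several families. AT5G19120, of the aspartyl protease family, ran from 10.4 to 336.7 with a median of 121.6 on low nitrate, against 652.6 to 1056.8 on high nitrate. AT3G62550, of the universal stress protein family, ran from 636.2 to 2921.6 with a median of 1073.3 on low nitrate, against 5965.8 to 9257.4 on high nitrate. AT3G07350 ran from 9.9 to 375.7 on low nitrate, against 492.4 to 1265.7, and AT1G08310, of the alpha/beta hydrolase superfamily, from 1.9 to 121.5, against 209.7 to 1010.1. AT4G14270 ran from 508.1 to 2260.3 on low nitrate, against 2871.3 to 4199.4 on high nitrate. In these 5 genes, picked by the same values, the nitrate levels did not overlap.

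In 3 of the 12 largest named lower members they did. AT2G04460, annotated as a pseudogene, had 127.0 on the Col-0 high-nitrate array of culture 1, below the 337.5 of the Col-0 LN T30 array of culture 1 that stands apart; its other low-nitrate arrays lay between 7.0 and 74.9. AT5G03350, a legume lectin, ran from 1343.1 to 12381.2 with a median of 4859.7 on low nitrate, against 7107.5 to 19563.6 on high nitrate. LTI30, a dehydrin of cold and drought, had 214.8 to 1193.3 on 11 low-nitrate arrays and 2679.3 on atg5 LN T30 of culture 1, against 1674.5 to 3077.9 on high nitrate. Without the arrays that stand apart AT5G03350 did not meet the rule.

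Lectins, proteins of defence families and a glucosidase were among the further named lower members. The jacalin-type lectins AT1G52000 and JAL23 had medians of 681.0 and 140.9 on low nitrate, against 3674.0 and 438.9 on high nitrate. AT2G43530, a defensin-like trypsin inhibitor, and AT2G43590, of the chitinase family, had medians of 1492.8 and 144.5 on low nitrate, against 5822.7 and 424.9 on high nitrate, and lie on chromosome 2 with 6 protein-coding genes between them. BGLU44, a beta-glucosidase, ran from 1030.2 to 5180.7 on low nitrate, against 5601.8 to 9969.7. Of these 5, only BGLU44 had no overlap between the nitrate levels. The smallest median difference of the named lower members was -0.91, for the stress protein AT5G22580, and its ranges of 2112.4 to 4503.1 on low nitrate and 4387.7 to 9869.5 on high nitrate met. Without the arrays that stand apart AT1G52000, JAL23, AT2G43590 and AT5G22580 did not meet the rule.

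The 10 higher members with a gene stand for 9 genes. AT1G06830 and AT2G47880 are glutaredoxins known as signals that travel in the phloem from nitrogen-short shoots to roots. AT1G06830 had the largest median difference, 2.05. On low nitrate its signals were 342.3 and 299.8 in atg9 at T60, 556.3 and 1716.6 in atg9 at T30, 171.0 and 447.2 in atg5 at T60, 456.1 and 1030.9 in atg5 at T30, 497.8 and 390.3 in Col-0 at T60 and 577.3 and 1713.3 in Col-0 at T30. On high nitrate they were 162.2 and 104.2 in atg5 and 86.9 and 92.3 in Col-0. The groups did not overlap, and the lowest low-nitrate value, on the atg5 T60 array that stands apart, lay next to the highest high-nitrate value. AT2G47880 ran from 359.7 to 2754.1 with a median of 1453.3 on low nitrate, against 300.7 to 503.1 on high nitrate. That same atg5 array, at 359.7, was its only low-nitrate array inside the high-nitrate range.

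HYH, a bZIP transcription factor of light signalling, ran from 172.8 to 2085.7 with a median of 358.9 on low nitrate, against 121.9 to 181.5 on high nitrate. Its lowest low-nitrate array, atg9 at T30 in culture 1, lay inside the high-nitrate range. AT2G36630, of the TauE/SafE family of membrane transporters, ran from 670.8 to 2031.7 on low nitrate, against 283.9 to 605.7 on high nitrate, without overlap. AT1G28570, of the GDSL lipase family, ran from 199.4 to 569.4 on low nitrate, against 122.2 to 175.0, also without overlap. AT5G54130, a calcium-binding protein of the endonuclease and phosphatase superfamily, has a pair of probe sets among the members, with median differences of 1.16 for 248191_at and 1.09 for 248190_at, and neither met the rule without the arrays that stand apart.

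AT4G27654 and AT4G27657 are neighbours with 0 protein-coding genes between them. AT4G27654 ran from 31.1 to 1642.2 with a median of 164.7 on low nitrate, against 25.8 to 87.2 on high nitrate, and AT4G27657 from 168.4 to 1485.4 with a median of 604.6, against 135.0 to 246.9. Both overlapped. AT5G59050 ran from 179.4 to 1787.8 on low nitrate, against 157.1 to 198.0 on high nitrate, and the atg5 LN T60 array that stands apart was its lowest on low nitrate.

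**Figure D2:**
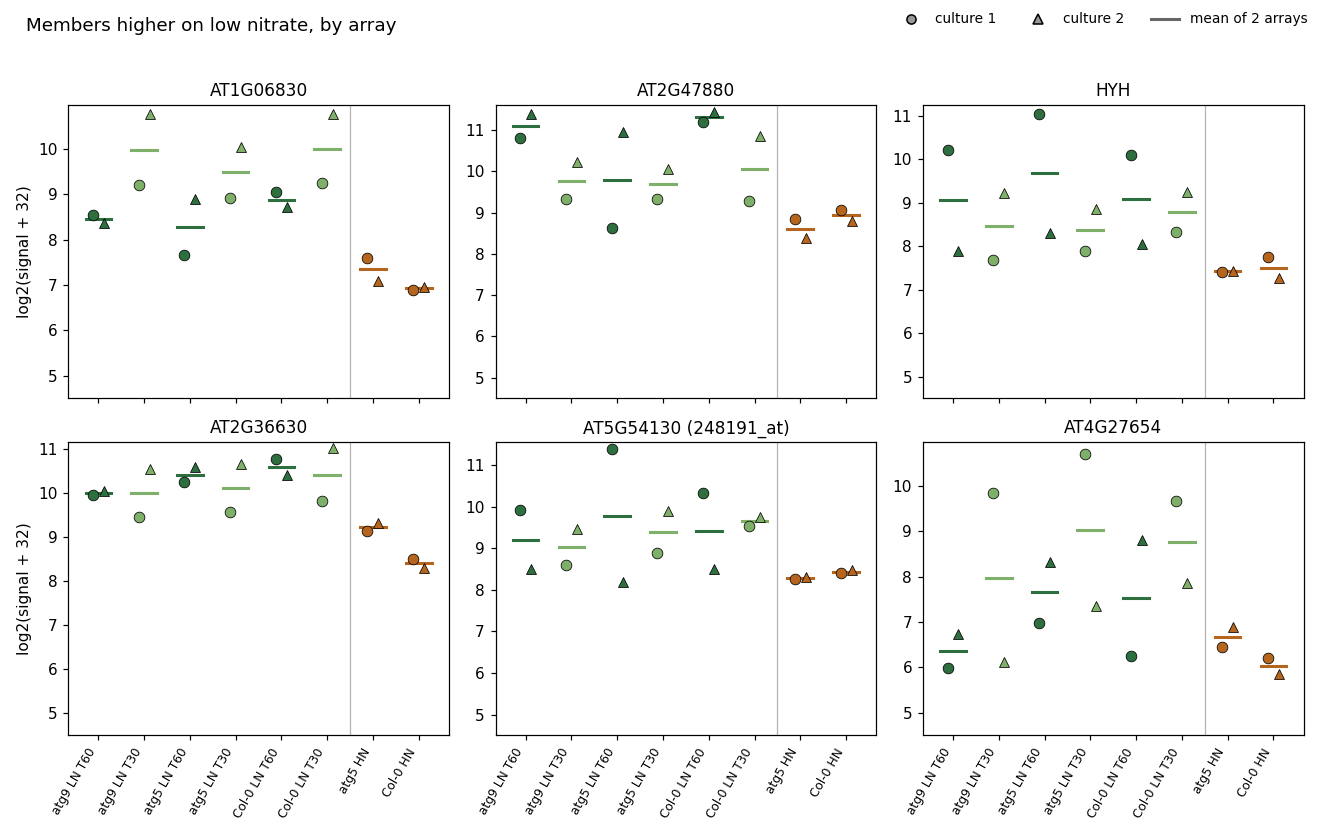
Level of 6 higher members on each array, as log2(signal + 32), by genotype, nitrate and age, with circles for culture 1, triangles for culture 2 and bars for the mean of 2 arrays. AT1G06830 and AT2G36630 have all 12 low-nitrate points above the 4 high-nitrate points, and HYH at T60 has culture 1 above culture 2 in all 3 genotypes.

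The atg9 arrays took no part in the choice. They can be set only against the high-nitrate arrays of atg5 and Col-0, which the rule did use, so the values that follow are a description. The median of the lower members in atg9 minus the mean of the 4 high-nitrate arrays was -1.29 at T60 and -1.91 at T30, against 0.00 and -0.06 over all eligible probe sets. That of the higher members was 1.23 at T60 and 1.01 at T30. At T60, 94 of 110 lower members were at least 0.8 lower in atg9 (2.4% of all probe sets) and 29 of 33 higher members at least 0.8 higher (3.15% of all). At T30 these were 105 of 110 (8.99% of all) and 24 of 33 (6.47% of all).

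By single arrays, 72 of 110 lower members had all 4 atg9 arrays below all 4 high-nitrate arrays (3.79% of all probe sets), and 21 of 33 higher members had them above (2.84% of all). The T60 pair alone did so in 79 lower members (12.1% of all) and 28 higher members (12.1% of all), and the T30 pair in 99 (20.8% of all) and 23 (17.1% of all). AT5G20790 differed in atg9 by -4.39 at T60 and -4.89 at T30, from signals of 53.4, 1.7, 2.6 and 9.4 on the 4 atg9 arrays. AT1G67600 differed by -2.79 and -2.34, and AGL42 by -2.13 and -2.52. AT1G06830 differed by 1.33 at T60 and 2.85 at T30, and AT2G47880 by 2.32 and 1.00. The pair of glutaredoxin genes thus had their larger value in atg9 at different ages. AT4G27654 was at 0.01 at T60 and 1.63 at T30, with 886.0 and 37.1 on its T30 arrays, so a single array carried the second value.

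**Figure D3:**
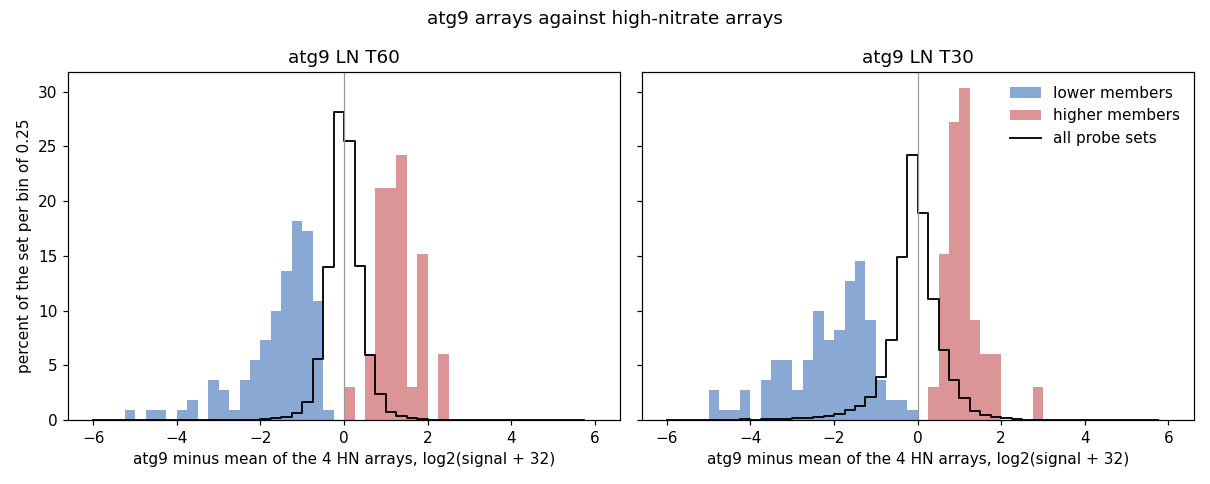
Level in atg9 on low nitrate minus the mean of the 4 high-nitrate arrays, as a difference of log2(signal + 32), at T60 (left) and T30 (right), as the percent of each set in bins of 0.25. Blue bars are the 110 lower members, red bars the 33 higher members and the line all eligible probe sets; values beyond the axis are counted in its end bins, and the members' medians are -1.29 and 1.23 at T60 and -1.91 and 1.01 at T30.

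Age on low nitrate was tested with limma in atg9, whose arrays the rule did not use. The test took in 13648 probe sets whose mean level over all 16 arrays reached a limit. These hold 121 of the 143 members, 90 lower and 31 higher. The mean level of 20 lower and 2 higher members was below the limit, among them AT5G20790, AT1G08310, AT1G67600, AGL42, OCT1 and WAG2. The mean is of log2 levels, so a member near the floor on low nitrate could fall out despite high signals on high nitrate. AT5G20790 did so, at 712.8 to 1650.7 on high nitrate. Of the 90 lower members, 10 passed that limit only through the high-nitrate arrays, where they are high, since their mean over the 12 low-nitrate arrays lay below it. In atg9, 15 of the 121 rose and 3 fell at T60 against T30 (14.1% and 8.94% of all tested), and none of these 18 was among the 10. Of the lower members, 13 rose, 2 fell and 75 did not pass, and of the higher members 2 rose, 1 fell and 28 did not pass. Over all 110 lower members the median age difference in atg9 was 0.41 and 80 were higher at T60, against a median of 0.03 and 52.3% higher over all eligible probe sets. Over all 33 higher members the median was 0.11. The age differences in atg5 and Col-0 come from arrays that chose the members, so they are given beside those of atg9 as values with the SE of the fit and with no test.

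AT1G13750, the purple acid phosphatase, rose in atg9 with age. Its signals were 835.0 and 388.2 in atg9 at T60 and 259.9 and 111.5 at T30, a log2 difference of 1.56 ± 0.32 (SE, limma adjusted p = 0.0064). At T60 both atg9 arrays were above both T30 arrays and still below the 1233.0 to 1887.4 of high nitrate. In atg5 they were 1086.2 and 747.2 at T60 and 348.8 and 174.8 at T30, a difference of 1.73 ± 0.32. In Col-0 they were 268.7 and 202.6 at T60 and 140.8 and 102.1 at T30, a difference of 0.80 ± 0.32. In each genotype both T60 arrays were above both T30 arrays.

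AT1G68670, the MYB-type factor, fell in atg9. Its signals were 357.5 and 424.0 in atg9 at T60 and 1140.9 and 1014.1 at T30, a difference of -1.39 ± 0.36 (limma adjusted p = 0.017). They were 852.1 and 358.7 in atg5 at T60 and 1505.9 and 1146.9 at T30 (-1.20 ± 0.36), and 290.2 and 451.2 in Col-0 at T60 and 1103.5 and 826.0 at T30 (-1.32 ± 0.36). Each T60 array was below each T30 array of its genotype.

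AT5G19120, of the aspartyl protease family, fell in atg9 by 1.69 ± 0.53 (limma adjusted p = 0.039). Its atg9 signals were 156.0 and 32.7 at T60 and 312.3 and 336.7 at T30. The difference was -0.47 ± 0.53 in atg5, within its SE, and -0.87 ± 0.53 in Col-0. AT1G06830, the glutaredoxin, was the third that fell in atg9, by 1.53 ± 0.51 (limma adjusted p = 0.0499). That p lay at the threshold, and the call was kept in 7 of 16 runs that left out a single array. AT1G06830 gave -1.21 ± 0.51 in atg5 and -1.12 ± 0.51 in Col-0. AT2G47880, the other glutaredoxin, gave 1.32 ± 0.53 in atg9, which did not pass (limma adjusted p = 0.093), 0.10 ± 0.53 in atg5 and 1.25 ± 0.53 in Col-0. The largest change of a member in atg9 was 3.76 ± 0.79, for the unlisted probe set 251625_at (limma adjusted p = 0.0070). It had 5252.2 and 2683.3 in atg9 at T60, 559.7 and 100.2 at T30, and 2475.1 to 12435.8 on high nitrate. Its T60 arrays thus reached the high-nitrate range and its T30 arrays did not. Among the members, the smallest adjusted p for age in atg9 was 0.0029 (limma), for the unlisted probe set 245736_at, at 2.24 ± 0.39. That probe set gave -0.50 ± 0.39 in atg5 and 1.51 ± 0.39 in Col-0.

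The same fit gave calls on the arrays that the rule used, and nothing is read from their number. In atg5 it called 12 of the 121 members higher and 1 lower at T60 against T30 (13.2% and 13.3% of all tested), and in Col-0 10 higher and 1 lower (7.15% and 4.99% of all tested). The unlisted probe set 267461_at rose in atg9, with 1633.4 and 1157.6 at T60 and 253.1 and 149.5 at T30, by 2.63 ± 0.64 (limma adjusted p = 0.014), and its difference was 3.32 ± 0.64 in atg5 and 2.96 ± 0.64 in Col-0. AT1G67330, of a family that includes cell wall methyltransferases, had 654.0 and 555.8 in atg5 at T60 and 301.5 and 256.4 at T30, a difference of 1.03 ± 0.31. AT3G47160, a RING-type zinc finger protein, had 564.4 and 990.0 in Col-0 at T60 and 310.3 and 157.0 at T30, a difference of 1.62 ± 0.45. In both genes, picked by the same values, the T60 arrays lay above the T30 arrays of that genotype.

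**Figure D4:**
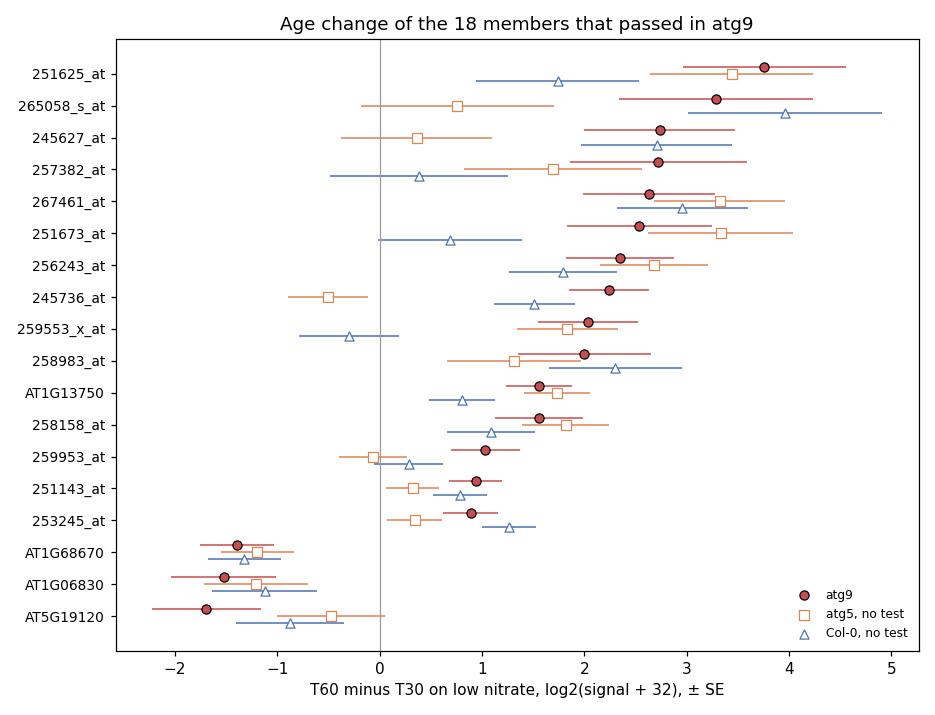
Age change on low nitrate, T60 minus T30 as a difference of log2(signal + 32) with the SE of the limma fit, for the 18 members that passed in atg9, with the same members in atg5 and Col-0. Filled circles are atg9, and open squares (atg5) and open triangles (Col-0) are values from arrays that chose the members, with no test; in atg9 15 points lie above 0 and 3 below.

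The counts changed when single arrays were left out, which leaves a lone array in that group. No share over all tested stands beside the counts of such runs, here and below, and nothing is read from their size. The atg9 count of 18 was 4 without the T60 array of culture 1, 7 without that of culture 2 and 2 without the T30 array of culture 2. The Col-0 count of 11 was 0 or 3 when the T60 array of culture 1 or of culture 2 was left out, and 1 when the T30 array of culture 1 was. It was 2 when both arrays that stand apart were left out. The atg5 count of 13 was 4 without the T30 array of culture 2. The difference in age change between genotypes also takes in arrays that the rule used. In atg9 against Col-0, 0 of 121 members were called (0% of all tested), with 3 at an unadjusted p under 0.05 by limma. In atg5 against Col-0, 0 were called (0.784% of all), with 16 at that unadjusted limit. The unadjusted counts have no share over all tested beside them, and nothing is read from them. Without the Col-0 LN T30 array of culture 2, 3 were called for atg5.

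The mutants were set against Col-0 within each condition. All atg5 and Col-0 arrays, on both nitrate supplies, entered the rule, so the counts of calls are given with nothing read from them, and single members by their signals and the difference with its SE, with no test. At T60 on low nitrate, limma called 8 members higher in atg5 than in Col-0 and 3 lower (4.76% and 2.15% of all tested), all of them lower members. AT1G13750 had 1086.2 and 747.2 in atg5 and 268.7 and 202.6 in Col-0, a difference of 1.81 ± 0.32. AT5G03350, the legume lectin, had 8444.2 and 12381.2 in atg5 and 1343.1 and 1620.9 in Col-0, a difference of 2.77 ± 0.60. AT5G22460 had 122.9 and 319.8 in atg5 and 966.8 and 641.9 in Col-0, a difference of -1.81 ± 0.48. In these 3 genes, picked by the same values, the atg5 and Col-0 arrays at T60 did not overlap.

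Without the arrays that stand apart the count at T60 was 4 in place of 11, and AT1G13750, AT5G03350 and AT5G22460 were not among the 4. Leaving out single arrays gave 1 call without Col-0 of culture 2, 2 without Col-0 of culture 1, 6 without atg5 of culture 1 and 22 without atg5 of culture 2.

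On high nitrate limma called 2 of the 121 members lower in atg5 than in Col-0 and 0 higher (0.0366% and 0.513% of all tested), and these 4 arrays enter every difference of the rule. The unlisted probe set 245736_at had 314.6 and 642.2 in atg5 and 2036.1 and 5001.7 in Col-0, a difference of -2.74 ± 0.39. On low nitrate it had 100.9 and 190.5 in atg5 and 535.9 and 1233.6 in Col-0 at T60 (-2.30 ± 0.39), and 234.7 and 190.9 in atg5 and 287.2 and 244.6 in Col-0 at T30 (-0.29 ± 0.39). The gap between the genotypes was thus seen on high nitrate and at T60 and lay within its SE at T30. The probe set 246884_at had 656.4 and 458.3 in atg5 and 1627.9 and 2213.5 in Col-0 on high nitrate, a difference of -1.73 ± 0.27. Without the culture 1 array of Col-0 or the culture 2 array of atg5 the count was 0, without either of the other high-nitrate arrays it was 1, and without either Col-0 LN T30 array it was 4.

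At T30 limma called 0 members between atg5 and Col-0 (0% of all tested), with 7 at an unadjusted p under 0.05. For atg9 against Col-0, whose low-nitrate arrays the rule used, it called 0 members at T60 (0.542% of all tested) and 0 at T30 (0.00733% of all), with 11 and 4 at an unadjusted p under 0.05. These unadjusted counts have no share over all tested beside them, and nothing is read from them. The median SE of a difference was 0.52 among the lower and 0.51 among the higher members. With 2 arrays a group, differences several times their SE could fail to pass, as did 251625_at in atg9 against Col-0 at T60, at 2.82 ± 0.79. A count of 0 therefore does not mean that differences of that size are absent. Without the Col-0 LN T30 array of culture 2, 2 members were called between atg5 and Col-0 at T30 and 4 between atg9 and Col-0. AT5G03350 had 8403.8 and 5850.6 in atg9 and 1343.1 and 1620.9 in Col-0 at T60, a difference of 2.22 ± 0.60.

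The 2 cultures differed in the members. Each low-nitrate array was set against the high-nitrate array of its own culture and genotype, or for atg9 against the mean of both high-nitrate arrays of its culture. At T30 the median of the lower members was -1.52 in culture 1 and -2.47 in culture 2 for atg9, -1.26 and -2.36 for atg5 and -1.76 and -2.68 for Col-0. Over all eligible probe sets the Col-0 T30 array of culture 1, which stands apart, had a median of 0.34, and the medians of the other arrays at either age lay between -0.06 and 0.02. Culture 2 was thus the farther from high nitrate at T30 in each genotype, in Col-0 with a baseline shifted the other way in culture 1. At T60 the medians were -1.34 and -1.45 for atg9, -1.42 and -1.52 for atg5 and -1.80 and -1.74 for Col-0, with no single order of the cultures. Among the higher members culture 1 was the farther at T60, with 1.23 and 1.13 in atg9, 1.36 and 1.16 in atg5 and 1.86 and 1.28 in Col-0. At T30 it was the closer, with 0.54 and 1.46 in atg9, 0.60 and 1.59 in atg5 and 0.86 and 1.63 in Col-0.

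The high-nitrate arrays of the cultures also differed from each other in the lower members. Against the mean of all 4, their medians were -0.36 in culture 1 and 0.14 in culture 2 for atg5 and 0.00 and 0.20 for Col-0. Against that pooled mean the T60 medians of the lower members were -1.49 and -1.37 in atg9, -1.82 and -1.45 in atg5 and -1.86 and -1.47 in Col-0, so culture 1 was the farther there, an order that turned in atg9 and atg5 when each culture was set against its own high-nitrate arrays. At T30 they were -1.61 and -2.25 in atg9, -1.56 and -2.30 in atg5 and -1.91 and -2.31 in Col-0, where the median over all probe sets was 0.32 on the culture 1 array and -0.07 on that of culture 2.

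**Figure D5:**
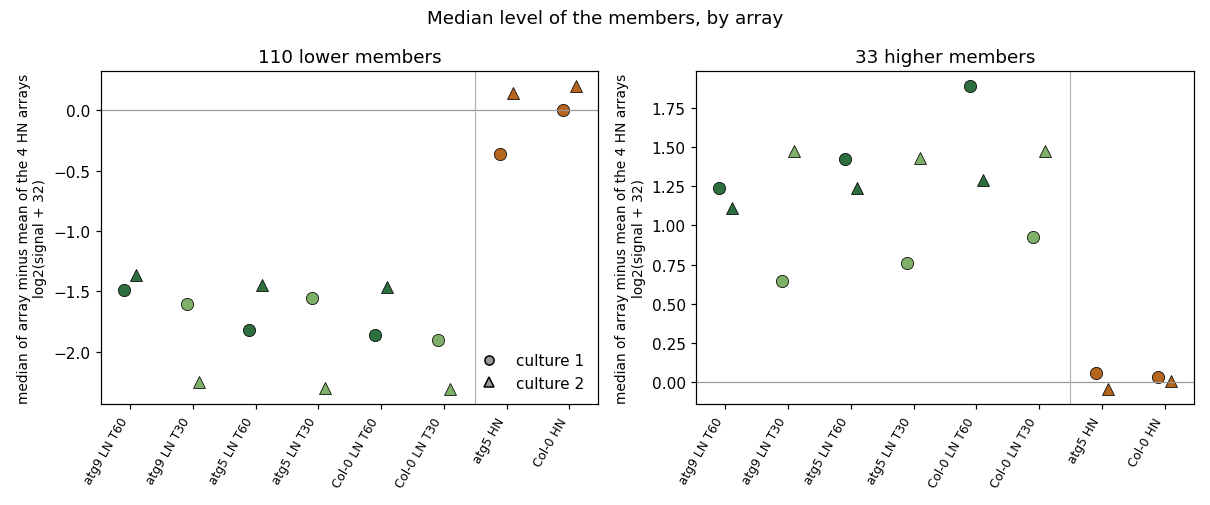
Median over the 110 lower members (left) and the 33 higher members (right) of each array's level minus the mean of the 4 high-nitrate arrays, in log2(signal + 32). Circles are culture 1 and triangles culture 2; the high-nitrate arrays of atg5 lie at -0.36 and 0.14 in the lower members, so the order of the cultures at T60 in the left panel depends on the pooled mean and turns in atg9 and atg5 within cultures.

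Member by member, culture 1 was above culture 2 at T60 and below it at T30 in all 3 genotypes for 11 of 33 higher members and 1 of 110 lower members (3.43% of all probe sets). The opposite order was found for 21 of 110 lower members and 2 of 33 higher members (3.67% of all). At T60 culture 1 was above by at least 1 in all 3 genotypes for 6 higher members and 1 lower member (0.274% of all) and below for 11 lower and 0 higher members (0.481% of all). At T30 it was above by that much for 7 lower members and 1 higher member (0.604% of all) and below for 4 higher and 0 lower members (0.159% of all). HYH had 1159.3 and 203.7 in atg9 at T60 in cultures 1 and 2, 2085.7 and 281.0 in atg5 and 1063.7 and 234.7 in Col-0. At T30 it had 172.8 and 566.2 in atg9, 205.0 and 427.2 in atg5 and 290.5 and 575.2 in Col-0. Culture 1 was the higher at T60 and the lower at T30 in each genotype, and on high nitrate the cultures were at 138.1 and 141.1 in atg5 and 181.5 and 121.9 in Col-0. In atg5 the HYH order was also seen in AT5G54130, where 248191_at had 2640.6 and 258.1 at T60 and 438.8 and 925.4 at T30. The 2640.6, like the 2085.7 of HYH, is from the atg5 LN T60 array that stands apart. The age change of HYH had an SE of 0.92 and did not pass in atg9 (limma adjusted p = 0.666).

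Genes of 23 lists were matched by symbol, so members with a locus identifier alone could not be matched to any list. These include AT1G68670 and the glutaredoxins AT1G06830 and AT2G47880, whose known roles are those of the nitrate signalling list, and a list with no member found here may therefore hold some. By symbol, LTI30 was found among 6 probe sets of abscisic acid, cold and dehydration, and IAA29 among 6 of cytokinin and auxin response. The other 5 matched probe sets of each list fell short of the rule. The lists of nitrate signalling, phosphate starvation, ribosome, and ammonium and amino acid transport had no probe set named by the annotation, and that of nitrate transport had 1, NRT2.5, a high-affinity nitrate transporter. NRT2.5 was no member, at 2.44 in atg5 at T60, -0.72 in atg5 at T30, 2.01 in Col-0 at T60 and 0.63 in Col-0 at T30, none of which passed. The 10 matched photosynthesis probe sets held 0 members (0.485% of all eligible were lower and 0.146% higher members). Of these 10, 0 passed in any of the 4 comparisons of low with high nitrate. In those comparisons 0.0659% to 8.15% of all tested were called lower. The share called higher is not given, so nothing is read from these zeros. Of 10 matched autophagy probe sets, 0 were members, and nothing is read from that either. Against high nitrate, limma called 9 of them lower in atg5 at T30 (8.15% of all tested). In Col-0 at T30 it called 3 lower (5.13% of all). At T60 it called 0 lower in atg5 (0.0659% of all) and 0 in Col-0 (0.462% of all). The high-nitrate plants are given as 30 and as 60 days old, so nitrate and age cannot be told apart in these comparisons. ATG8D, 1 of the ATG8 family that coats autophagosomes, gave 0.38 in atg5 at T60, -1.36 in atg5 at T30, 0.33 in Col-0 at T60 and -0.86 in Col-0 at T30, where both T30 values passed (limma adjusted p = 0.0028 and 0.025).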

How the data were processed

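The authors deposited 1 table with 16 arrays and 22810 probe sets. Its values are MAS5 intensity, per the submitters' processing notes, with no version given. They are linear, scaled to a common trimmed mean, with no detection calls, and array number limits the precision. All columns were used. Levels are log2(signal + 32), so differences of dim probe sets are understated. limma 3.58.1 in R 4.3.3 fitted 8 group means and a culture block with a variance trend (7 residual and 4.84 prior degrees of freedom). Of 22746 probe sets, those whose mean level was below 7.02, the 40th percentile, were not tested, and two-sided p-values were adjusted by Benjamini-Hochberg over 13648 per comparison, with a threshold of 0.05. The procedure was tested on simulated data. Apart from age in atg9, every comparison takes in arrays that chose the members, so its calls among them are no independent test. The age test in atg9 shares its error estimate with those arrays. The culture numbers are shared cultures per the labels. Culture differences correlated between groups at -0.168 to 0.707 (median -0.0725), with 8 of 28 pairs over 0.1. The block is a single shift shared by all groups, so it does not take out culture differences that change with age, as in HYH. Those stay in the age differences and in the error of every test. Beyond that shift, arrays of a culture at the same age are treated as independent.

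The members, gene lists and comparisons were chosen with earlier results of these data known. Named were, per direction, the 12 members with 1 gene and the largest median difference, those nearest the limit and members in a list. Per comparison, members with a small adjusted p were named, mainly among those with 1 gene and not always the smallest. Other named members were chosen after their values were seen. Roles are general background, not part of the annotation. List genes were matched by symbols and synonyms in the annotation, so genes it gives only a locus identifier were not found. Names ending in s_at or x_at may bind several genes. Promoter motifs were not searched.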

Additional observations from a re-analysis of the deposited data

How the results depend on the processing

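The count of members called in Col-0 between T60 and T30, 11, was 7 with no filter, 7 without the replicate block and 2 without the arrays that stand apart. That between atg5 and Col-0 at T60, also 11, was 4 without those arrays, where fewer arrays remain. The other causes were not tested. The number of members was 75 at a limit of 1.0 and 281 at 0.6, by construction, 165 with 16 added, 122 with 64 added and 136 after quantile normalization, 126 of them shared. The block moved no other count by over 1.5 times. Leaving out single arrays gave 100 to 173 members, 2 to 23 calls for age in atg9, 0 to 12 in Col-0 and 4 to 16 in atg5. For atg5 against Col-0 it gave 0 to 4 on high nitrate, 0 to 2 at T30 and 1 to 22 at T60. For atg9 against Col-0 it gave 0 to 4 at T30 and 0 at T60, and for the age change against Col-0 0 to 3 in atg5 and 0 in atg9. A lone array left in a group is assumed to vary like the others. The calls of these runs have no share over all tested beside them, and nothing is read from their number. With each of the 12 arrays of the rule left out, 37 members, 35 lower and 2 higher, met it every time. Of 55 single calls 31 passed without the arrays that stand apart and 45 without the block, and 0 turned sign under any alternative run.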
